A study of Mus musculus with 40 samples.

Results

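The calcineurin (Cn) knockout was compared with its control in mouse aortas after 24 h of angiotensin-II (Ang-II), the longest infusion of the genotype experiment. The comparison used every library the labels place at 24 h in that experiment: 5 of the 40 libraries in the series, of which 2 are labelled Cn-Ctl (replicates 2 and 3) and 3 are labelled SM-Cn-/- (replicates 1, 2 and 3). The remaining 17 libraries of the genotype experiment (untreated, 2 h and 6 h) entered the fit only to estimate the spread and to place the 24 h difference in time. A second experiment gave C57BL/6J mice cyclosporin A (CsA), a drug that blocks the Cn enzyme, for 5 days by minipump before Ang-II. Its WT controls had no pump at that stage, and its 6 libraries at 24 h are set beside the knockout. These WT and CsA mice were males of 10 to 12 weeks, with no tamoxifen listed. After Ang-II, mice of both arms were used only when their systolic pressure exceeded 130 mmHg.

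The labels give both genotypes as male mice with floxed CnB1 (gene Ppp3r1), and both received 1 mg of tamoxifen a day for 5 days at 10 to 12 weeks of age. Ang-II was infused at 1 µg/kg/min from a minipump, 6 weeks after tamoxifen. The SM-Cn-/- mice carried Myh11-CreERT2, a tamoxifen-inducible recombinase driven by a smooth muscle promoter, and the labels give the Cn-Ctl mice of all 10 libraries as negative for it. The methods of the study define Cn-Ctl more widely, so as to include mice that carry the recombinase without a floxed allele, and do not say which were used for these libraries. If the labels hold, the effect of the recombinase itself cannot be told apart from the loss of CnB1. The deletion reaches only cells in which Myh11 is expressed. Treated Cn-Ctl mice were used only when their systolic pressure exceeded 130 mmHg, whereas no such cutoff was set for treated SM-Cn-/- mice. By the methods, SM-Cn-/- mice in which the deletion of CnB1 could not be shown were removed. These selections also cannot be told apart from genotype. Each library is a pool of 3 aortas stripped of adventitia and perivascular tissue.

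Cn is a phosphatase switched on by calcium and calmodulin, made of a catalytic A subunit and a regulatory B subunit that the enzyme cannot work without. Its best known substrates are the NFAT transcription factors, which enter the nucleus when Cn removes their phosphates. Ang-II raises calcium in smooth muscle through the AT1 receptor, and over hours to days it drives the vessel wall to contract, to remodel its matrix and to thicken.

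At 24 h, 713 of 14424 protein-coding genes (4.94%) differed between the genotypes at an adjusted p under 0.05, as fitted with limma on log2(signal + 0.5). Signal is the deposited normalized value, a read number divided by a scaled library size. Of these, 386 genes (2.68% of those tested) were lower and 327 (2.27%) higher in SM-Cn-/-, and 504 changed by more than 2-fold. The lower genes held matrix, cholesterol synthesis, TGF-beta, chaperone and immediate early genes, and the higher genes held endothelial markers and genes of the Y chromosome. The libraries of the genotypes did not overlap in 710 of the 713, against 35.1% of all genes (18% with all SM-Cn-/- libraries above and 17.1% with all below). The median standard error of a log2 difference was 0.36, and the median difference over all genes was 0.04.

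The count rests on the Cn-Ctl libraries. Without Cn-Ctl replicate 3, 177 genes passed (60 higher and 117 lower), and without Cn-Ctl replicate 2, 1010 passed (664 higher and 346 lower). Leaving out SM-Cn-/- replicate 1, 2 or 3 at 24 h gave 416, 383 and 476. With a Cn-Ctl library left out, the lone remaining one is assumed to vary as the other groups do. An exact permutation test of 3 libraries against 2 cannot give a two-sided p below 0.2 for a single gene, so that each p given for a gene comes from limma, which borrows the spread from the other libraries and genes.

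**Figure D1:**
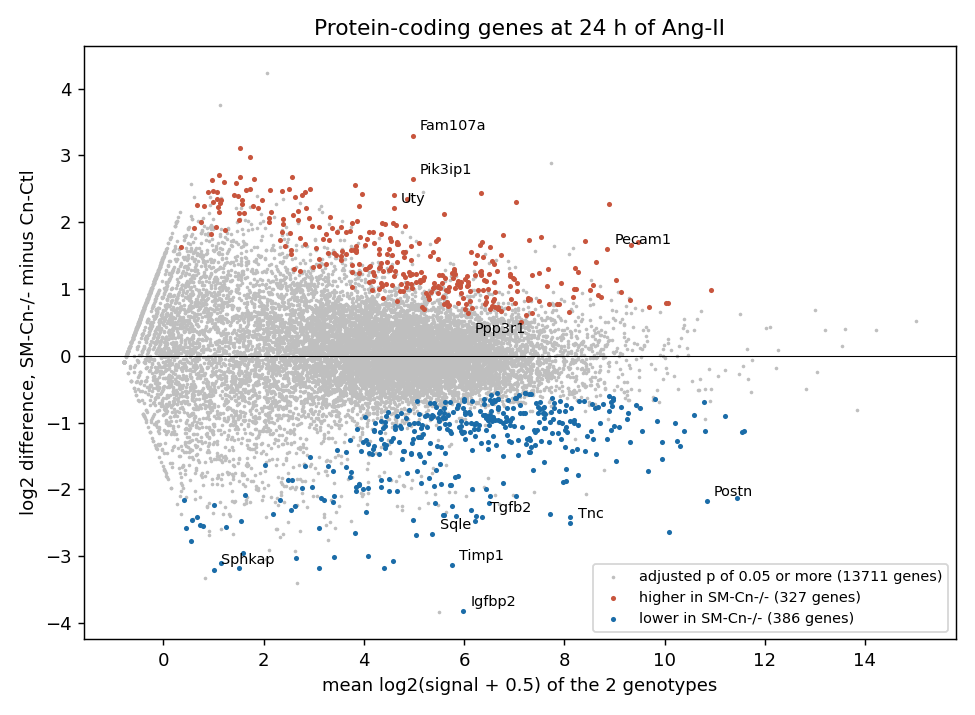
Each point is 1 of the 14424 protein-coding genes at 24 h of Ang-II: the horizontal axis is the mean log2(signal + 0.5) of both genotypes and the vertical axis the log2 difference, SM-Cn-/- minus Cn-Ctl. Red marks the 327 genes called higher in SM-Cn-/-, blue the 386 called lower and grey the rest; Igfbp2 is at -3.83 and Fam107a at 3.29, while Ppp3r1 lies among the grey points at 0.26.

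The 5 libraries differed in ways that the groups do not explain. Assigned reads were 7105827 and 3968895 in Cn-Ctl replicates 2 and 3, and 8331090, 6169180 and 10250178 in SM-Cn-/-, and 13% of listed genes had 0 reads in Cn-Ctl replicate 3 against 3.86% to 7.68% in the other 4. Chi-square per degree of freedom between replicates was 40.8 in Cn-Ctl and 9.25 to 24.9 in SM-Cn-/-, more than read sampling alone would give (a ratio of 1). Smooth muscle contractile genes (30 measured) summed to 87215 and 54260 in Cn-Ctl and 49777 to 52898 in SM-Cn-/-. Adipose markers (13 measured, none called, none at 0 reads in all 5) summed to 1283 in Cn-Ctl replicate 2, 4511 in Cn-Ctl replicate 3 and 3422 to 5633 in SM-Cn-/-. The defining smooth muscle markers were abundant in all 5 libraries: Myh11 signal was 6780 and 3819 in Cn-Ctl and 4447, 4389 and 4590 in SM-Cn-/-.

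The RNA of the targeted gene did not separate the genotypes. Ppp3r1 (ENSMUSG00000033953, GRCm38 chr11:17159263-17200375), which encodes the CnB1 subunit, had a signal of 80.3 and 45.7 in Cn-Ctl and 84.1, 84.4 and 54.4 in SM-Cn-/-. The libraries overlapped, and the log2 difference was 0.26 ± 0.36 (SE), with a 95% interval of -0.49 to 1.02 and an adjusted p of 0.77. It was -0.14 without Cn-Ctl replicate 3. The values are sums over the whole gene, so that reads from exons outside the floxed part count in both genotypes, and where the floxed exons lie was not analysed here. The genes of the catalytic subunits did not pass either: Ppp3ca was at 0.22 (adjusted p 0.54), Ppp3cb at 0.11 (0.88) and Ppp3cc at -0.37 (0.66), each on the log2 scale. The study checked the deletion by other means than RNA level. It tested recombination of CnB1 by PCR on a piece of aortic tissue. Its immunoblots of aortic extracts showed less CnB and CnA protein in SM-Cn-/- mice.

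Genes that lie on the Y chromosome did separate them, and this bears on the label because the methods place the Myh11-CreERT2 transgene there. All 4 measured genes of the list, Uty, Ddx3y, Eif2s3y and Kdm5d, were higher in SM-Cn-/- at 24 h, where 2.27% of all genes were. Uty, a histone demethylase homologue, had a signal of 8.95 and 12.8 in Cn-Ctl and 55.9, 49.8 and 49.2 in SM-Cn-/-, a log2 difference of 2.21 ± 0.24 (adjusted p 2.4e-05). Over the 22 libraries of the genotype experiment Uty lay between 8.95 and 24.9 in the 10 Cn-Ctl libraries and between 45.5 and 71.8 in the 12 SM-Cn-/- libraries. Kdm5d and Eif2s3y did not overlap over the 22 libraries either, while Ddx3y did. The Kdm5d call was lost when any 1 of the 5 libraries was left out (adjusted p 0.077 to 0.17). The 11 measured neighbours of Myh11 and the 8 of Ppp3r1 held no call at 24 h, where 4.94% of all genes were called. At 2 h, 3 of the 11 Myh11 neighbours were higher in SM-Cn-/- and none lower, where 0.728% of all genes were higher.

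Untreated aortas differed in 2 genes (0.0139%), 1 higher and 1 lower (0.00693% each): Uty, with a log2 difference of 1.51 (adjusted p 0.024), and P3h2, a collagen prolyl hydroxylase, with -1.60 (adjusted p 0.0091). Both were called at 24 h too. The study discarded 1 untreated Cn-Ctl replicate that stood apart in a principal component analysis, so that 2 remained for every comparison with untreated Cn-Ctl. P3h2, named here after its values were seen, had a signal of 52.2 and 49.8 in Cn-Ctl and 24.5, 15.8 and 15.1 in SM-Cn-/- at 24 h, and over all times the 12 SM-Cn-/- libraries (12.3 to 25.7) lay below the 10 Cn-Ctl libraries (49.8 to 119). The same separation at every time held for Sphkap, an anchoring protein of kinase A, with 0.046 to 1.27 in SM-Cn-/- and 3.24 to 17.1 in Cn-Ctl. The SM-Cn-/- libraries at 24 h held 3, 0 and 0 reads of it, so that its fitted log2 difference of -3.21 depends on the pseudocount. Leaving out untreated Cn-Ctl replicate 2 or 3 left 0 genes in untreated aortas by limma (545 and 524 at an unadjusted p under 0.05), leaving out untreated SM-Cn-/- replicate 3 left 1, and over all libraries edgeR called the same 2, while DESeq2 gave neither of them an adjusted p and called 32 other genes.

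**Figure D2:**
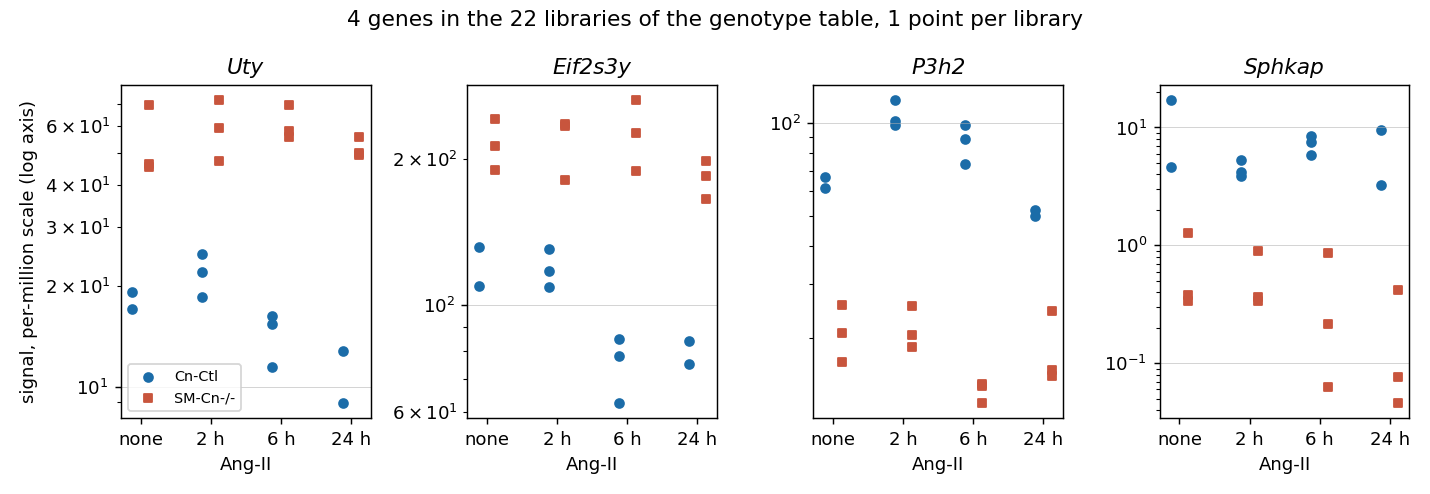
Signal of Uty, Eif2s3y, P3h2 and Sphkap on a log axis in the 22 libraries of the genotype experiment, by time of Ang-II; blue circles are Cn-Ctl and red squares SM-Cn-/-, 1 point per library. In each panel the genotypes stay apart at every time, for Uty with a lowest SM-Cn-/- value of 45.5 and a highest Cn-Ctl value of 24.9.

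Of 5 genes that the study follows by name, 3 were lower in SM-Cn-/- at 24 h. The study chose these genes on these experiments, so their direction is not independent evidence. Ptgs2, the inducible cyclooxygenase, was at 40.7 and 170 in Cn-Ctl and 14.7, 9.50 and 14.1 in SM-Cn-/- (log2 difference -2.69 ± 0.55, adjusted p 0.0050). Rcan1, a Cn inhibitor whose gene is itself a known Cn-NFAT target, was at 75.3 and 158 against 30.7, 33.9 and 28.6 (-1.80 ± 0.36, adjusted p 0.0045). For both genes Cn-Ctl replicate 3 stood well above replicate 2, and without it the calls were lost (adjusted p 0.25 for Ptgs2, at -1.66, and 0.20 for Rcan1). Without Cn-Ctl replicate 2, Ptgs2 was at -3.71. Gja1, which encodes the gap junction protein connexin 43, was at 227 and 302 against 108, 113 and 72.7 (-1.44 ± 0.24, adjusted p 0.00084). The immediate early gene Ier3 (-0.94 ± 0.31, adjusted p 0.086) and the TGF-beta signal transducer Smad2 (0.01 ± 0.40, adjusted p 0.99) did not pass, and the sign of Smad2 turned under 8 of the alternatives.

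**Figure D3:**
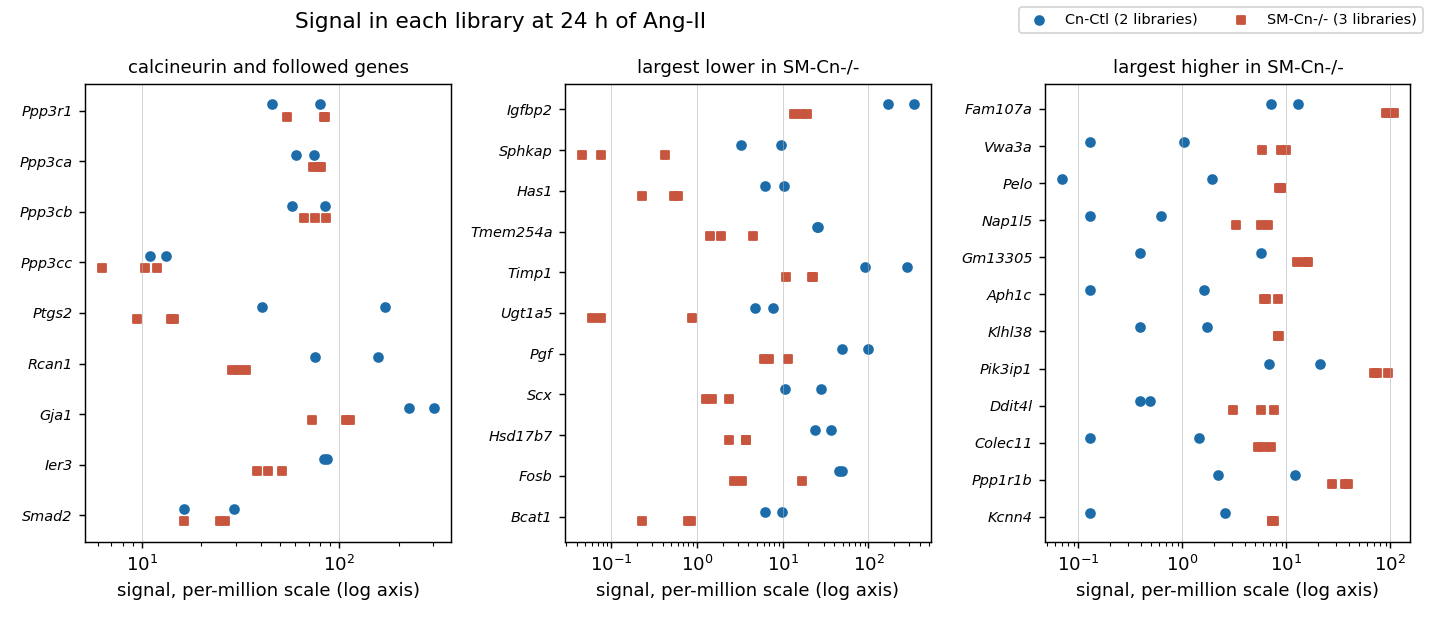
Signal on a log axis in each of the 5 libraries at 24 h for the Cn subunits and 5 genes the study follows (left), 11 of the 12 largest decreases (middle) and the 12 largest increases (right); blue circles are the 2 Cn-Ctl libraries and red squares the 3 SM-Cn-/- libraries. Ppp3r1 overlaps between genotypes, Gja1 runs from 72.7 to 113 in SM-Cn-/- and is at 227 and 302 in Cn-Ctl, and many of the increases on the right start from Cn-Ctl signals near or under 1.

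Matrix genes were among the decreases. Here and in the lists that follow, each count of lower genes at 24 h stands beside 2.68% of all genes. Among 32 measured matricellular proteins, matrix components and proteases, 12 were lower and 1 higher (Adamts15, 1.56), with a median log2 difference of -0.72 against 0.04 over all genes. Postn (periostin), an adhesion protein of remodelling matrix, was at 4407 and 3455 in Cn-Ctl and 832, 862 and 891 in SM-Cn-/- (-2.18 ± 0.26, adjusted p 4.7e-05). Tnc (tenascin C), a matrix glycoprotein induced by stretch and injury, was at 482 and 911 against 136, 118 and 98.7 (-2.50 ± 0.28, adjusted p 2.8e-05). Both fell by more than 4-fold, and their SM-Cn-/- libraries lay close together.

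Timp1, an inhibitor of matrix metalloproteinases, was at 90.7 and 281 in Cn-Ctl and 22.2, 22.8 and 10.9 in SM-Cn-/- (-3.14 ± 0.54, adjusted p 0.0013), and the hyaluronan receptor Cd44 at 119 and 250 against 55.4, 45.2 and 32.1 (-1.99 ± 0.30, adjusted p 0.00045). The Timp1 call depended on Cn-Ctl replicate 3 (-2.32, adjusted p 0.085 without it, and -3.95 without replicate 2). The other lower members of the list were Thbs1 (-2.37), Ctgf (-2.14), Cyr61, Nov, Fn1, Prg4, Has1 and Adamts1. With Cn-Ctl replicate 3 left out, 6 members of the list passed, all lower.

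Collagen and elastic fibre genes fell too: 9 of 33 were lower, none higher, with a median of -0.58. Loxl2, an enzyme that cross-links collagen and elastin, had the smallest p of the list, at 158 and 127 in Cn-Ctl and 42.6, 33.6 and 30.0 in SM-Cn-/- (-2.0 ± 0.20, adjusted p 6.5e-06). Col15a1, a basement membrane collagen, was at 540 and 435 against 133, 135 and 126 (-1.88 ± 0.22, adjusted p 2.8e-05). The fibrillar and microfibrillar chains Col5a2 (-1.25 ± 0.22, adjusted p 0.0013) and Col6a3 (-1.39 ± 0.20, adjusted p 0.00032) followed the same direction. The summed signal of the list was 21539 and 16340 in Cn-Ctl and 11318 to 14024 in SM-Cn-/-. Of its genes 6 passed without Cn-Ctl replicate 3.

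The TGF-beta list was split. Of 31 measured genes 6 were lower and 2 higher, the latter being the co-receptor Tgfbr3 (1.23) and the latency protein Ltbp4 (1.07), and the median of -0.12 lay near that of all genes. Tgfb2 (ENSMUSG00000039239, GRCm38 chr1:186622792-186705989), the ligand TGF-beta 2, was at 184 and 197 in Cn-Ctl and 39.3, 36.1 and 30.8 in SM-Cn-/-. It was 5.35-fold lower (-2.42 ± 0.20) and had the smallest adjusted p of the list, 3.9e-07, with an adjusted p of at most 8.9e-05 when any 1 of the 5 libraries was left out. Pmepa1, a feedback inhibitor of TGF-beta signalling, was at 694 and 786 against 299, 379 and 392 (-1.06 ± 0.18, adjusted p 0.0013). Ltbp1, which tethers latent TGF-beta to matrix, was at 952 and 956 against 557, 544 and 557 (-0.79 ± 0.16, adjusted p 0.0043, and 0.051 without Cn-Ctl replicate 3). Without Cn-Ctl replicate 3 the list held 3 calls. Its median turned to 0.17 without Cn-Ctl replicate 2.

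Cholesterol synthesis and uptake genes were lower as a group. All 20 measured genes had a negative difference, from -2.67 to -0.40 with a median of -1.36, and 10 passed the test, none of them higher. Sqle, squalene epoxidase, was at 101 and 106 in Cn-Ctl and 14, 18.9 and 15 in SM-Cn-/- (-2.67 ± 0.33, adjusted p 6.8e-05). The 2 controls were nearly equal and the knockout libraries were at a fraction of them.

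Msmo1, a demethylase of sterol intermediates, was at 107 and 113 against 18.8, 21.9 and 21.7 (-2.39 ± 0.30, adjusted p 8.0e-05), and Fdps, which makes farnesyl diphosphate, at 154 and 158 against 26.6, 35.3 and 31.6 (-2.32 ± 0.34, adjusted p 0.00033). Cyp51 (-2.38), Idi1 (-1.95), Lss (-1.42) and Hmgcs1 (-1.30), which are further enzymes of the same route, were lower as well. Outside the list, Hsd17b7, which has a step in cholesterol synthesis, was at 23.7 and 36.6 against 2.35, 3.78 and 3.73 (-3.01 ± 0.44, adjusted p 0.00033). The summed signal of the list was 1462 and 1478 in Cn-Ctl against 492 to 553 in SM-Cn-/-, and 7 genes of the list passed without Cn-Ctl replicate 3.

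At the other times the cholesterol list lay nearer to 0, and the difference between times was not tested for the list. Its median was 0.19 in untreated aortas, -0.49 at 2 h and -0.05 at 6 h. It held 3 lower genes at 2 h (2.97% of all genes were lower) and none at 6 h (1.44%). Between untreated and 24 h the median change was 1.36 in Cn-Ctl, with 11 of 20 genes raised (3.22% of all genes rose), and -0.25 in SM-Cn-/-, with none raised (0.638% of all genes). In the CsA experiment the median of 19 measured genes was -0.13 at 24 h and none passed, where 5.57% of all genes did. The difference between the experiments was not tested.

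Genes of the unfolded protein and integrated stress response were lower: 7 of 25, none higher, with a median of -0.61. Hspa5, the main chaperone of the endoplasmic reticulum (BiP), was at 979 and 1252 in Cn-Ctl and 466, 535 and 516 in SM-Cn-/- (-1.13 ± 0.21, adjusted p 0.0023). Manf, a secreted stress protein, was at 148 and 181 against 68.2, 85.5 and 81.5 (-1.06 ± 0.17, adjusted p 0.00075), the chaperone Hyou1 at -1.07 and the transcription factor Atf4 at -1.15. Xbp1 (-0.78), Pdia6 (-0.85) and Edem1 (-0.78) completed the calls; these 3 were lost without Cn-Ctl replicate 3 (adjusted p 0.10 to 0.32) and without SM-Cn-/- replicate 1 or 2 (0.057 to 0.12), Xbp1 and Edem1 also without Cn-Ctl replicate 2 (0.061 and 0.068), and Pdia6 and Edem1 without SM-Cn-/- replicate 3 (0.054 and 0.096). From untreated to 24 h, 14 of the 25 genes rose in Cn-Ctl (3.22% of all genes rose), whereas 1 rose in SM-Cn-/- (0.638%). The CsA experiment held 13 lower genes of 25 in this list, with a median of -0.42, where 3.54% of all genes were lower.

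Promoters of the stress response and cholesterol lists, called or not, were searched for the elements those pathways are known for. The windows are those of RefSeq on GRCm38.p6, from 250 bases before to 50 bases after each start. The ER stress element was spelled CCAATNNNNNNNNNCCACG and the sterol element TCACCCCAC, each sought on both strands, and no window of these lists held both. The ER stress element was in 37 of 27025 genes (0.137%), and in 7 of the 23 stress genes with a window. Of the 7 called stress genes 5 had a window, and 2 of these held the element, Hspa5 and Pdia6. The other genes with the element, Calr, Canx, Creld2, Dnajc3 and Hsp90b1, were not called. The sterol element was in 166 of 27025 genes (0.614%) and in 1 of the 12 cholesterol genes with a window, Hmgcs1. Of the 10 called cholesterol genes only 5 had a window. A match is a description of these letters. The 3 windows of called genes that hold an element are given in the direction of transcription, with the element's fixed letters in capitals (Hspa5 chr2:34771840-34772139, plus strand; Pdia6 chr12:17266339-17266638, plus strand; Hmgcs1 chr13:119690101-119690400, plus strand):
Hspa5: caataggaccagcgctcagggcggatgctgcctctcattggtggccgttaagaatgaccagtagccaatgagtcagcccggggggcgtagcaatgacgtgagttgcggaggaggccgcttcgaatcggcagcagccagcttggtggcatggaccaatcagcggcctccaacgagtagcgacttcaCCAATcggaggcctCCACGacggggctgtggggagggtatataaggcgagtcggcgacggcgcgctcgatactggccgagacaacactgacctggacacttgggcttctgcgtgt
Pdia6: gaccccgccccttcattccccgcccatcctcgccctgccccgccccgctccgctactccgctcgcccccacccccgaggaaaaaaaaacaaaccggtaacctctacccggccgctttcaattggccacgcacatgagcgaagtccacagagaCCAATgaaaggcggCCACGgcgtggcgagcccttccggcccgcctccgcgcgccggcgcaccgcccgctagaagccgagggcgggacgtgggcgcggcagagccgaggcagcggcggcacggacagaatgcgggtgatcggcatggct
Hmgcs1: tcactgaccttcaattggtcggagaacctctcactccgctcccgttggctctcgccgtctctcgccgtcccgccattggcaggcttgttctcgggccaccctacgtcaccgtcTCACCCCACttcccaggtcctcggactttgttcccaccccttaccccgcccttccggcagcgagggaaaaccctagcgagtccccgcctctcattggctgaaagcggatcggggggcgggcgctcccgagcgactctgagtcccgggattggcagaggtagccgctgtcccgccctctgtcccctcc

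Cytosolic heat shock genes were lower in 7 of 15 cases and higher in none, with a median of -0.71. Hspa1b, an inducible HSP70, was at 136 and 222 in Cn-Ctl and 35.9, 31.7 and 30.6 in SM-Cn-/- (-2.39 ± 0.47, adjusted p 0.0035); it shares most of its sequence with Hspa1a (-1.94), so the split of reads between both is uncertain. Hspb1 (HSP27) was at 517 and 636 against 144, 226 and 142 (-1.78 ± 0.35, adjusted p 0.0036). Hsp90aa1 (-1.29 ± 0.23, adjusted p 0.0017) and Hsph1 (-1.59 ± 0.37, adjusted p 0.014) were lower too. With Cn-Ctl replicate 3 left out, 0 of the heat shock genes and 1 of the stress response genes passed, with adjusted p of 0.081 to 0.11 for Hspa5, Hyou1, Atf4, Hspa1b, Hspb1, Hsp90aa1 and Hsph1. Hsph1 was also lost without Cn-Ctl replicate 2 (0.056) or SM-Cn-/- replicate 2 (0.061).

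Immediate early genes, which cells switch on within minutes of a stimulus, were lower in 5 of 28 cases (median -0.50), none higher. Fosb was at 48.9 and 46.0 in Cn-Ctl and 16.9, 2.70 and 3.36 in SM-Cn-/- (-3.00 ± 0.54, adjusted p 0.0017; -3.77 without SM-Cn-/- replicate 1). The nuclear receptor Nr4a3 was at 28.9 and 26.8 against 8.74, 6.26 and 5.57 (-1.97 ± 0.30, adjusted p 0.00055). Atf3 (-1.35), Dusp5 (-2.31) and Fosl2 were the remaining calls. At 2 h, by comparison, 25 of the 28 genes were lower in SM-Cn-/-, where 2.97% of all genes were, with a median of -1.83.

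Cytokine, chemokine and acute phase genes had a median of -0.77, with 4 of 37 lower: Lcn2 (-2.65), Ccl7 (-2.37), Socs3 (-1.87) and Serpina3n (-1.43). Lcn2, lipocalin 2, was at 22 and 56 in Cn-Ctl and 3.44, 5.02 and 7.96 in SM-Cn-/-. Cn-Ctl replicate 3 held the highest value of all 4 genes, and without it no gene of the list passed. Of the early and cytokine genes named, Atf3, Dusp5, Lcn2, Ccl7, Socs3 and Serpina3n lost their call without it (adjusted p 0.097 to 0.44), with Lcn2 at -1.98 and Socs3 at -1.19. Without Cn-Ctl replicate 2, Lcn2 was at -3.31, Socs3 at -2.54 and Atf3 was lost (0.067). Leaving out an SM-Cn-/- library ended 2 to 5 of the same 8 calls (adjusted p 0.051 to 0.15).

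**Figure D4:**
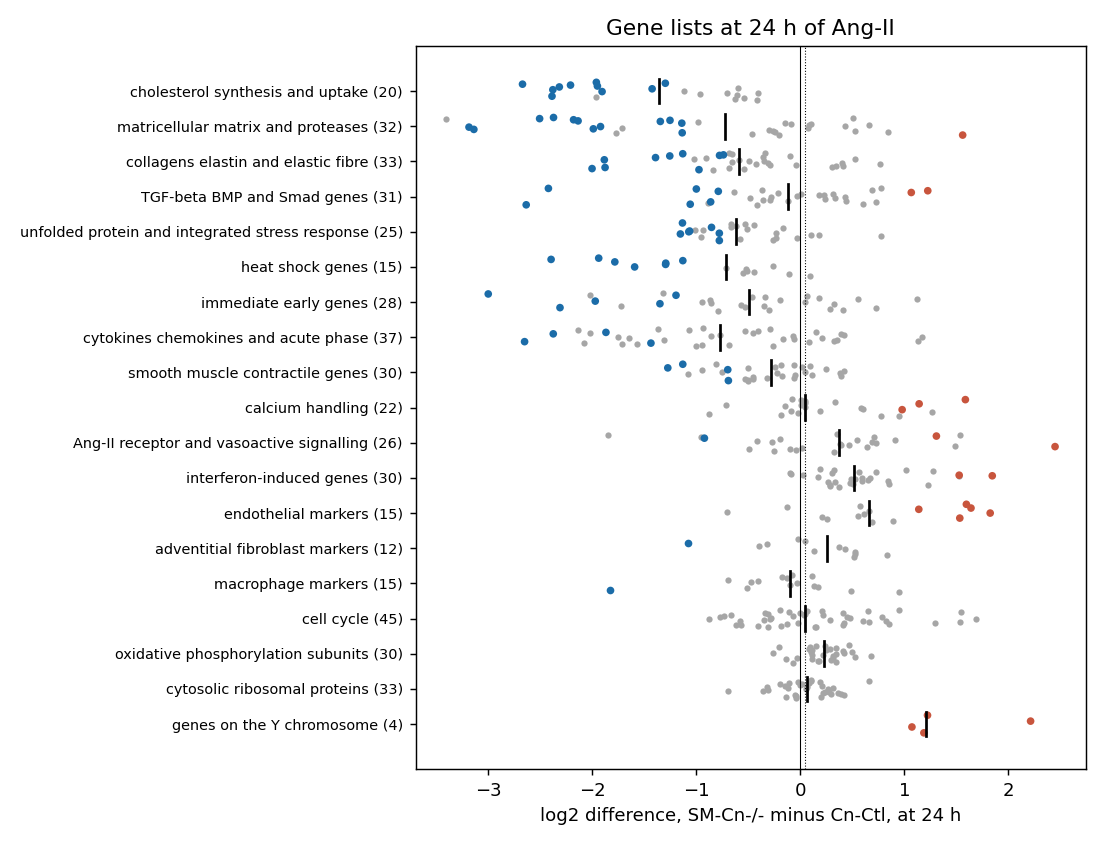
Log2 differences (SM-Cn-/- minus Cn-Ctl) at 24 h for the measured members of 19 gene lists, with the number of genes in brackets; blue and red points passed an adjusted p under 0.05 as lower and higher, grey points did not, the black bar is the list's median and the dotted line the median of all genes, 0.04. The cholesterol list lies wholly below 0 with a median of -1.36, the endothelial list has its median at 0.66, and the cell cycle, oxidative phosphorylation and ribosomal lists have no call.

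Contractile genes of smooth muscle were lower in 4 of 30 cases and higher in none, with a median of -0.28. Actg2, the enteric smooth muscle actin, was at 667 and 451 in Cn-Ctl and 225, 286 and 245 in SM-Cn-/- (-1.13 ± 0.20, adjusted p 0.0013), and calponin, Cnn1, at 2428 and 1490 against 730, 774 and 862 (-1.27 ± 0.25, adjusted p 0.0032). Tpm1, a tropomyosin (-0.70 ± 0.19, adjusted p 0.031), and Vcl, vinculin (-0.69 ± 0.19, adjusted p 0.040), were lower by less. Acta2, the defining actin of vascular smooth muscle, was at 26029 and 14373 against 12409, 10827 and 10009 and did not pass (-0.81 ± 0.34, adjusted p 0.21). Cn-Ctl replicate 2 held the higher control value in each of these 5 genes. Without it Cnn1, Tpm1 and Vcl were lost (adjusted p 0.054 to 0.24) and 1 contractile gene was higher and 1 lower. Tpm1 and Vcl were also lost without any SM-Cn-/- library (0.057 to 0.13), and Vcl without Cn-Ctl replicate 3 (0.10).

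Calcium and vasoactive genes held calls in both lists, where 4.94% of all genes were called (2.27% higher and 2.68% lower). Of 22 calcium handling genes 3 were higher and none lower, with a median of 0.05 against 0.04 over all genes. Of 26 genes of Ang-II reception and vasoactive signalling 2 were higher and 1 lower, with a median of 0.37 that was 0.0022 without Cn-Ctl replicate 3. Stim1, the calcium sensor of the sarcoplasmic reticulum, was at 60.0 and 50.4 in Cn-Ctl and 111, 113 and 103 in SM-Cn-/- (0.98 ± 0.16, adjusted p 0.00084). The calcium pump Atp2a3 (1.14) and the L-type channel Cacna1d (1.59) were the other higher genes. Ace, which makes Ang-II, was at 305 and 117 against 432, 483 and 495 (1.31 ± 0.30, adjusted p 0.013), the adrenergic receptor Adra1d at 6.04 and 0.906 against 18.8, 11.2 and 19.6 (2.45 ± 0.57, adjusted p 0.014), and Rgs4, which shortens receptor signals, was lower (-0.92 ± 0.23, adjusted p 0.021).

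Among 26 regulators of Cn and NFAT factors 2 were higher and 2 lower, where 4.94% of all genes were called. Mef2c, a muscle transcription factor, was at 63.2 and 52.9 in Cn-Ctl and 132, 111 and 140 in SM-Cn-/- (1.13 ± 0.22, adjusted p 0.0035). Rcan2, a relative of Rcan1, was higher (0.99 ± 0.26, adjusted p 0.031), and Ppia, the cyclophilin that CsA binds, was lower (-0.65 ± 0.16, adjusted p 0.022). Among these regulators and the calcium and vasoactive genes named, only Stim1 stayed past the threshold in all 5 of the leave-one-out fits. Without Cn-Ctl replicate 3, Mef2c, Rcan2, Ppia, Atp2a3, Cacna1d, Ace, Adra1d and Rgs4 were lost (adjusted p 0.051 to 0.48), with Ace at 0.62 and Adra1d at 1.34. Without Cn-Ctl replicate 2 these were at 2.00 and 3.56, and Ppia and Rgs4 were lost (0.080 to 0.13). Leaving out an SM-Cn-/- library ended 3 or 4 calls of Rcan2, Ppia, Adra1d, Rgs4 and Cacna1d (0.052 to 0.11).

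Beyond the lists, the 12 largest decreases began with Igfbp2, which binds insulin-like growth factors. Its signal was 339 and 168 in Cn-Ctl and 19.4, 13.7 and 16.4 in SM-Cn-/-, 14.2-fold lower (-3.83 ± 0.52, adjusted p 0.00016), and untreated libraries held 3.93 to 9.57 in both genotypes. Pgf, the placental growth factor, was at 49.1 and 98.0 against 11.5, 6.87 and 6.03 (-3.07 ± 0.44, adjusted p 0.00032). Both genes stayed past the threshold without any 1 of the 5 libraries.

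Scx (scleraxis), a transcription factor of tendon and matrix-producing cells, was at 27.8 and 10.7 against 1.27, 2.39 and 1.52 (-3.04 ± 0.62, adjusted p 0.0047; lost without Cn-Ctl replicate 2, at -2.37 and 0.066, and -3.70 without replicate 3). Has1, a hyaluronan synthase, was at 6.18 and 10.5 against 0.543, 0.232 and 0.598, from at most 6 reads in an SM-Cn-/- library (-3.18 ± 0.61, adjusted p 0.0031). Bcat1, an enzyme of branched-chain amino acids (-2.95), Tmem254a (-3.18) and Ugt1a5 (-3.10) were also among these decreases, together with Sphkap, Timp1, Hsd17b7 and Fosb above. Ugt1a5 overlaps 8 other Ugt1a genes on its strand in the annotation and Tmem254a has near-identical neighbours, so the reads of both are uncertain. Has1, Bcat1, Tmem254a and Ugt1a5 were lost without Cn-Ctl replicate 3 (adjusted p 0.055 to 0.21), and Ugt1a5 also without SM-Cn-/- replicate 1 or 2 (0.070 and 0.069). Sphkap was at -2.50 without Cn-Ctl replicate 2 and at -3.92 without replicate 3.

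The increases were led by Fam107a (ENSMUSG00000021750, GRCm38 chr14:8296274-8318023), an actin-binding stress protein. Its signal was 12.8 and 7.12 in Cn-Ctl and 108, 91.5 and 96.1 in SM-Cn-/-, 9.80-fold higher (3.29 ± 0.38, adjusted p 2.8e-05). Pik3ip1, an inhibitor of PI3-kinase, was at 21.2 and 6.86 against 74.1, 93.8 and 69.2 (2.64 ± 0.32, adjusted p 4.7e-05). Both controls lay below the untreated Cn-Ctl libraries, which held 32.8 and 38.2 of Fam107a and 57.5 and 56.3 of Pik3ip1. The SM-Cn-/- libraries lay above their untreated ones for Fam107a (27.1 to 61.4) and overlapped them for Pik3ip1 (37.1 to 69.5).

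Vwa3a, a protein with a von Willebrand A domain, was at 1.04 and 0.129 against 8.86, 9.96 and 5.84 (3.12 ± 0.48, adjusted p 0.00056). It was the third and last of the 12 to hold without any 1 of the 5 libraries. Ppp1r1b (2.56), Pelo (2.98), Nap1l5 (2.71), Gm13305 (2.68), Aph1c (2.67), Klhl38 (2.65), Ddit4l (2.60), Colec11 (2.59) and Kcnn4 (2.50) all lost their call without Cn-Ctl replicate 3 (adjusted p 0.062 to 0.58). Of these, Aph1c, Nap1l5, Kcnn4 and Colec11 had 0 reads in that library, and Pelo had 0 reads in Cn-Ctl replicate 2 and 7 in replicate 3 while lying inside the span of Itga1 on the same strand. Without Cn-Ctl replicate 3, Pik3ip1 was at 1.86, Vwa3a at 2.47, Ppp1r1b at 1.46, Gm13305 at 1.27, Aph1c at 1.81, Klhl38 at 1.98, Colec11 at 1.77, Kcnn4 at 1.36 and Pelo at 4.03. Without Cn-Ctl replicate 2, Pelo was lost at 1.93 (adjusted p 0.30), and Pik3ip1 was at 3.42, Vwa3a at 3.76, Ppp1r1b at 3.67, Gm13305 at 4.09, Aph1c at 3.54, Klhl38 at 3.32, Colec11 at 3.40 and Kcnn4 at 3.64. Without 1 of the SM-Cn-/- libraries, 2 to 4 of Pelo, Kcnn4, Ddit4l and Gm13305 were lost (0.051 to 0.11).

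Endothelial markers moved with the higher genes. Of 15 measured, 5 were higher and none lower, with a median of 0.66, where 2.27% of all genes were higher. Their summed signal was 670 and 720 in Cn-Ctl and 1489, 1492 and 1433 in SM-Cn-/-. Pecam1 was at 285 and 247 against 848, 788 and 777, 3.02-fold higher (1.60 ± 0.28, adjusted p 0.0013), and Cldn5, a tight junction protein, at 7.15 and 14.6 against 39.1, 42.6 and 32.0 (1.83 ± 0.42, adjusted p 0.012). The transcription factor Sox17 (1.53), the angiopoietin receptor Tek (1.64) and Tie1 (1.14) were the others, and no marker was at 0 reads in all 5 libraries. In these bulk samples, a change in the share of cells of a type and a change in RNA per cell cannot be told apart. The median of the list was 0.44 in untreated aortas, 0.44 at 2 h and 0.41 at 6 h. The part of endothelial content in the other higher genes was not tested. Without Cn-Ctl replicate 3, Sox17 and Tek were lost (adjusted p 0.079 to 0.26) and without replicate 2 Cldn5 (0.13). Leaving out SM-Cn-/- replicate 2 or 3 ended Tek (0.075 and 0.072), and replicate 2 also Cldn5 (0.053). Tie1 was lost without any 1 of the 5 libraries (0.076 to 0.29).

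The 24 h difference was also compared with what Ang-II changed in each genotype. The interaction, which tests whether the change from untreated to 24 h differs between genotypes, passed in 74 genes (0.513%), 51 lower and 23 higher in SM-Cn-/-. Tgfb2 led it: it rose by 0.91 on the log2 scale in Cn-Ctl and fell by 1.39 in SM-Cn-/-, an interaction of -2.31 ± 0.28 (adjusted p 0.00048). Loxl2 (-2.20 ± 0.28, adjusted p 0.00051), Anxa2, a membrane protein that binds plasminogen and its activator (-1.85 ± 0.24, adjusted p 0.00063), Fxyd5, a regulator of the sodium pump (-2.25 ± 0.33, adjusted p 0.0030), and Sqle (-3.14 ± 0.47, adjusted p 0.0030) came next.

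Anxa2 was at 858 and 958 in Cn-Ctl and 321, 294 and 298 in SM-Cn-/- at 24 h, and Fxyd5 at 174 and 258 against 54.7, 54.3 and 59.6, while untreated libraries of both genotypes held 286 to 407 and 27.1 to 38.1. In the interaction 0.354% of all genes were lower. Lower were 6 of the 20 genes of the cholesterol list and 6 of the 32 of the matricellular list. The collagen list gave 3 of 33, the stress response list 3 of 25, the TGF-beta list 2 of 31 and the cytokine list 2 of 37. None of these lists held a higher gene. The count ranged from 9 to 375 when 1 library of the 4 groups was left out: 9 without Cn-Ctl replicate 3 at 24 h, 375 without replicate 2 at 24 h, and 10 without either untreated Cn-Ctl library. It was 27 and 34 without SM-Cn-/- replicate 1 or 2 at 24 h and 29 without untreated SM-Cn-/- replicate 1.

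At 2 h and 6 h of Ang-II, 534 and 285 genes differed between genotypes (3.70% and 1.98%). These differences use none of the 24 h libraries, but the spread of each gene was estimated over all 22 libraries. The calls at different times are therefore not independent of each other. Of the 386 genes lower at 24 h, 189 were also lower at 2 h, where 2.97% of all genes were, which is 49.0% of the 24 h set and 44.1% of the 2 h set of 429, and 110 at 6 h (background 1.44%), which is 28.5% of the 24 h set and 52.9% of the 6 h set of 208. Their median difference was -0.77 at 2 h, -0.62 at 6 h and -0.08 in untreated aortas. Of the 327 higher genes, 41 were higher at 2 h (background 0.728%; 12.5% of the 24 h set, 39.0% of the 2 h set of 105) and 36 at 6 h (background 0.534%; 11% and 46.8% of 77), with medians of 0.45 at both times and 0.04 untreated. Within Cn-Ctl, which shares its 24 h libraries with the comparison, 205 of the 386 had risen from untreated to 24 h and 146 of the 327 had fallen, where 5.62% of all genes changed (3.22% up and 2.39% down). Within SM-Cn-/-, 0.79% of all genes changed (0.638% up and 0.153% down). There 3 of the 386 had risen and 5 had fallen, and 10 of the 327 had risen and 2 had fallen. SM-Cn-/- shares its 24 h libraries with the comparison too, so that neither set of counts is independent of how the genes were chosen.

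The difference itself changed from 2 h to 24 h in 4 genes (0.0277%), all of them larger at 2 h and none called at 24 h: the chaperones and co-chaperones Dnaja4 (2.58, adjusted p 0.00014), Bag3 (1.96, 0.0037) and Dnajb1 (2.91, 0.023), and the transcription factor Jun (1.94, 0.0046). The Dnajb1 call was lost in 7 of the 11 fits that left out 1 library at 2 h or 24 h (adjusted p 0.055 to 0.12), after quantile normalization (0.074) and without a trend and with robust estimation (0.19). The Jun call was lost without Cn-Ctl replicate 3 at 24 h (0.093). Bag3, Dnaja4 and Jun were named after their values were seen. Dnajb1, a partner of HSP70, was at 595, 867 and 931 in Cn-Ctl and 73.5, 56.4 and 90.3 in SM-Cn-/- at 2 h. By 24 h it was at 45.2 and 51.4 against 41.1, 24.9 and 36.4, near each other. DESeq2 called 61 genes, and leaving out 1 library gave 2 to 75, the latter without Cn-Ctl replicate 2 at 24 h and the former without replicate 3. It gave 8 without SM-Cn-/- replicate 3 at 2 h and 7 without Cn-Ctl replicate 1 or 3 at 2 h.

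**Figure D5:**
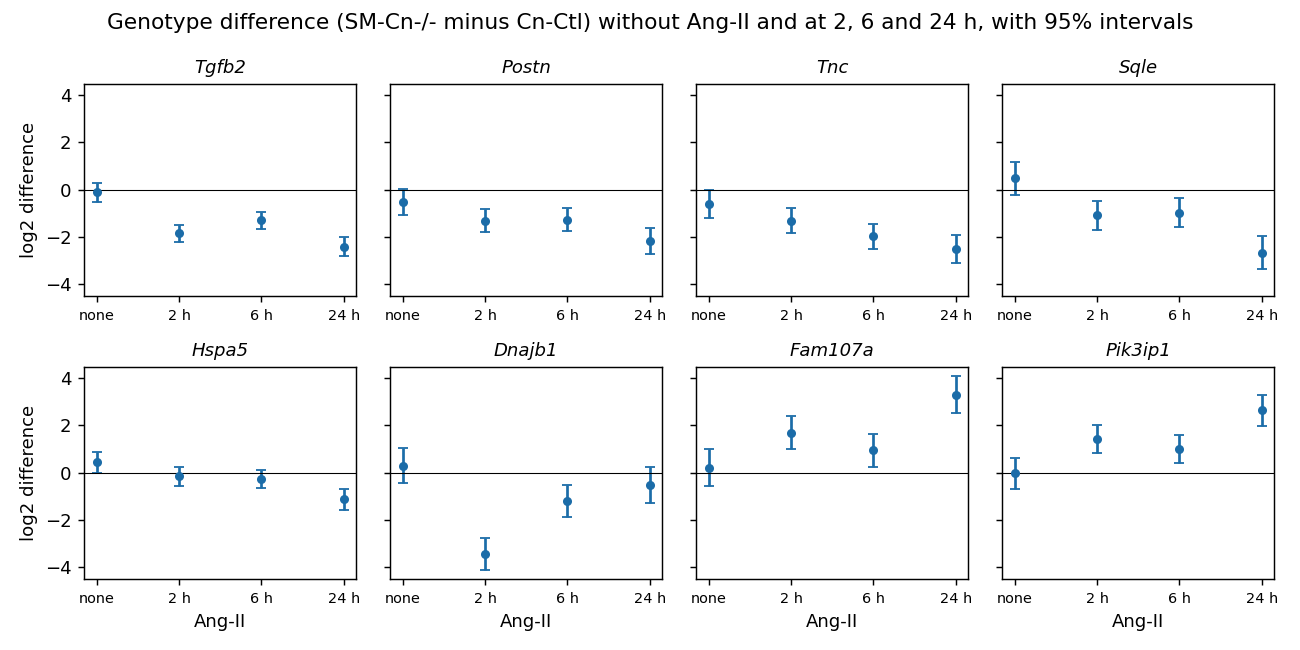
Genotype difference on the log2 scale (SM-Cn-/- minus Cn-Ctl) without Ang-II and at 2, 6 and 24 h for 8 genes; points are the fitted differences and bars their 95% intervals. Sqle reaches -2.67 at 24 h from -1.09 at 2 h, Fam107a reaches 3.29 at 24 h, and Dnajb1 returns from -3.43 at 2 h to -0.52 at 24 h.

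The CsA experiment was fitted on its own, and no test was made between the tables. At 24 h, 765 of 13741 genes (5.57%) differed between CsA and WT aortas. Of the 386 genes lower in SM-Cn-/-, 382 were measured there, with a median CsA difference of -0.48 and 146 called lower, none higher, where 3.54% of all genes were lower. All 327 higher genes were measured, with a median of 0.36 and 74 called higher, none lower, where 2.02% of all genes were higher.

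Ptgs2 (-2.76, adjusted p 0.0042), Timp1 (-2.18, 0.0026), Tnc (-1.74, 0.0033), Hspa5 (-0.81, 0.0050) and Fam107a (0.99, 0.0066) passed in the same direction as in the knockout. Tgfb2 (-0.69, adjusted p 0.15), Postn (-0.48, 0.22) and Sqle (-0.48, 0.20) did not pass under CsA. Sqle was at 74.2 ± 12 in WT and 53.0 ± 9.15 in CsA (SD, n = 3).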

How the data were processed

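RNA was taken from pools of 3 mouse aortas, reverse transcribed with oligo-dT and sequenced on an Illumina Genome Analyzer IIx. The submitters' processing notes name Bowtie 0.12.7, RSEM 1.16 and the build GRCm38. The deposited values are a normalized signal that the authors computed, of which 100% converted to whole reads (tolerance 0.05) as (reads + 0.5) divided by a scaled library size. The lowest value of a library therefore stands for 0 reads, and a log2 difference on this scale understates the change of low genes. Library totals were 2728007 to 10250178 reads in the genotype table and 18976266 to 38900009 in the CsA table, and a count of 0 allows up to 3 reads, for counting error only.

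Groups were taken from the labels. limma 3.58.1 in R 4.3.3 (lmFit and eBayes with a trend, Benjamini-Hochberg adjustment, threshold 0.05) was fitted to log2(signal + 0.5) of the 14424 protein-coding genes over all 22 libraries of the genotype table, with 1 mean per group and no filter beyond the table's own. The CsA table (13741 genes, 18 libraries) was fitted apart. The test behind the study's own gene calls was not given in the sources used here. Alternatives were edgeR 4.0.16 (quasi-likelihood) and DESeq2 1.42.0 on recovered reads, other scalings, pseudocounts and filters, a replicate block, and leaving out each library. Genes named with full statistics were the Cn subunits, the followed genes, the 12 largest called changes each way with a group mean of at least 5 and no overlap, up to 4 members per list by p, and up to 5 for the interaction and for the change from 2 h; further called members are named with their list. The comparison, the 36 gene lists and these rules were chosen with earlier results of these data known. Whether replicates came from separate days is not stated, and each is a separate pool. Cn-Ctl replicate 1 at 24 h was not analysed here, and some genes that these rules give are not reported here.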

Additional observations from a re-analysis of the deposited data

Results flagged for a closer look

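The change with Ang-II differed between the genotypes in 74 genes by the interaction term of limma. Its smallest p-values belonged to Tgfb2 (-2.31), Loxl2 (-2.20), Anxa2 (-1.85), Fxyd5 (-2.25) and Sqle (-3.14), each a log2 difference of the changes from untreated to 24 h, SM-Cn-/- minus Cn-Ctl.

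The genotype difference at 24 h departed from that at 2 h in 4 genes, Dnajb1 (2.91), Bag3 (1.96), Dnaja4 (2.58) and Jun (1.94), on the log2 scale.

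Outside the protein-coding genes, 50 of 2978 non-coding or unannotated genes (1.68%) passed at 24 h, 27 higher and 23 lower, of which 14 are pseudogenes. The long RNA Mir22hg had a signal of 151 and 144 in Cn-Ctl and 66.1, 58.0 and 67.5 in SM-Cn-/- (-1.21 on the log2 scale). Reads of a pseudogene and its parent gene cannot be told apart with certainty.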

How the results depend on the processing

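Of 92 called genes that the naming rules gave, 40 passed in each fit that left out 1 of the 5 libraries at 24 h. The 24 h count of 713 was 321 when only the compared groups were fitted and 177 to 1010 when 1 library was left out. DESeq2 called 1003 and edgeR 606. The interaction count of 74 was 289 by DESeq2, 43 with only the compared groups, 14 without a trend and with robust estimation, 120 with the replicate block and 9 to 375 with 1 library left out. The 4 genes that changed from 2 h to 24 h became 61 by DESeq2, 1 without a trend and with robust estimation and 2 to 75 with 1 library left out. The untreated count of 2 was 32 by DESeq2, none of them shared, 6 after quantile normalization, 0 with only the compared groups (995 at an unadjusted p under 0.05), 1 without a trend and with robust estimation and 0 to 3 with 1 library left out. The causes were not tested.

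Same-numbered libraries correlated at 0.059 and 0.15 in their deviations from the group means over 2 pairs, so that the numbers were not shown to pair the samples. With the replicate block 763 genes passed at 24 h, 4 in the change from 2 h and 3 untreated.

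Log2 differences at 24 h that changed sign did not pass in any of these fits. Smad2 was at -0.03989 by DESeq2, -0.02315 by edgeR, -0.01011 after median-ratio scaling, -0.00801 after quantile normalization and -0.09057 with the replicate block. With 1 library left out Smad2 ranged from -0.395 to 0.4157, Ppp3r1 from -0.1394 to 0.667, Ppp3cb from -0.1723 to 0.3833, Jun from -0.1265 to 0.2517 and Dnaja4 from -0.2268 to 0.09471. The median of the 11 Myh11 neighbours ranged from -0.1213 to 0.2083, the latter without Cn-Ctl replicate 2.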

Other observations

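Several lists not described above are given here by their calls at 24 h, where 4.94% of all genes were called. Of 30 interferon-induced genes 2 were higher, Gbp3 (1.53) and Gbp4 (1.85), both guanylate-binding proteins, with a list median of 0.51 at 24 h and 0.60 in untreated aortas. Gbp3 was lost without Cn-Ctl replicate 3 (0.87) and Gbp4 without replicate 2 (0.73). Of 18 glucocorticoid-responsive genes 2 were higher, Glul (1.40), glutamine synthetase, and Sult1a1 (0.70), a sulfotransferase. Of 21 redox genes Gstm1 (1.72), a glutathione transferase, was higher and the zinc transporter Slc39a14 (-1.34) and thioredoxin Txn1 (-0.55) were lower. Of 20 glycolysis and hypoxia genes Pgk1 (-0.76) was lower. Txn1 and Sult1a1 were lost without either Cn-Ctl library, and Pgk1 without Cn-Ctl replicate 3, and Pi16, named below, was lost without either as well (adjusted p by limma 0.057 to 0.58 over all these lost calls). Leaving out 1 SM-Cn-/- library ended 4 to 6 of the calls of Txn1, Sult1a1, Pgk1, Gbp3, Gbp4 and Pi16 (0.056 to 0.12).

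Marker lists of other cell types are short, so that a count of calls says little about them (4.94% of all genes were called). Lgals3 (-1.83) was the call among 15 macrophage markers, Pi16 (-1.08) among 12 adventitial fibroblast markers and Cytl1 (1.77) among 7 cartilage-like markers. The summed signal of the cartilage-like list was 192 and 124 in Cn-Ctl and 414, 409 and 420 in SM-Cn-/-. Blood cell markers summed to 617 and 157 in Cn-Ctl and 516, 2279 and 641 in SM-Cn-/-, with no call. The cell cycle (45 genes), oxidative phosphorylation (30), cytosolic ribosomal (33), circadian clock (18), antigen presentation (14), neutrophil (4), lymphocyte (7), nerve (10), and skeletal and cardiac muscle (16) lists held no limma call.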
